A study of Mus musculus with 4 samples.

Results

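The 10 genes described here act at the G1/S and G2/M steps of the cell cycle, and their RNA was followed in mouse embryonic stem cells (ESCs) with and without the kinase gene Pim3. They were a set listed by name, which is 10 of the 55418 genes in the deposited count table: the D-type cyclins Ccnd1, Ccnd2 and Ccnd3, the E-type cyclins Ccne1 and Ccne2, the inhibitors Cdkn1b, Cdkn2a and Cdkn2b, and the phosphatases Cdc25a and Cdc25c. The list includes genes of known Pim substrates. All 10 had enough reads to be tested.

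D-type cyclins pair with Cdk4 and Cdk6, and E-type cyclins with Cdk2, to phosphorylate the retinoblastoma family and release E2F factors, which turn on genes of DNA replication. The product of Cdkn1b, p27, inhibits cyclin E-Cdk2, and the Ink4 proteins from Cdkn2a and Cdkn2b inhibit Cdk4 and Cdk6, whereas Cdc25 phosphatases remove inhibitory phosphates from Cdks. Mouse ESCs are known for a short G1 phase with high cyclin E-Cdk2 activity, and Pim kinases are known to phosphorylate p27, Cdc25A and Cdc25C, a control of protein that mRNA counts do not measure.

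The cells were E14 ESCs, of strain 12910la in the labels, grown on gelatin in medium with serum and leukaemia inhibitory factor (LIF). One group was wild type (WT, n = 2 libraries). The other group was Pim3-/- (n = 2 libraries), made with CRISPR/Cas9 and guides against a pair of Pim3 exons. Each Pim3-/- library is 1 clone, so the effect of the genotype and the particulars of a clone are sampled by 2 clones only. Which clone carries which replicate number was not stated, and the WT libraries were described as biological samples with no further detail. Poly(A) RNA was sequenced in bulk, so fewer cells of a type and less RNA per cell cannot be told apart.

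The libraries held 22029427 to 25668307 counts. Levels are given as CPM, the count per 1000000 counts of the library total, after scaling by the trimmed mean of M-values (TMM), and 3 counts then correspond to 0.112 to 0.157 CPM. The choice of scaling matters, because TMM factors were 0.8276 and 0.8828 in WT and 1.168 and 1.172 in Pim3-/-. Against library totals alone, the median log2 fold change of all tested genes moved from 0.07 to 0.52, a shift of 0.45, and the share of calls that were higher moved from 52.1% to 85.8%. For Pim3 itself the table lists 4392 and 4953 counts (WT) and 4970 and 4804 counts (Pim3-/-), a log2 difference of -0.27 (SE 0.17) with TMM and 0.19 with library totals. The clones carry deleted or inserted bases in the gene, which a count per gene does not measure, so these counts do not check the labels. Of 8 pluripotent markers, 3 fell (Pou5f1, Nanog and Dppa5a) and 1 rose (Klf4), with all 8 detected in all 4 libraries, and with library totals Nanog (-0.45, edgeR adjusted p = 0.0992) and Dppa5a (-0.51, 0.0720) did not pass and Sox2 (0.83, 0.0218) and Tdgf1 (0.79, 0.0135) were called higher. Of the markers of the 2-cell stage (2C) all 7 rose, with summed levels of 16.4 and 13.4 CPM in WT against 141 and 39.5 in Pim3-/-. All 6 tested markers of primitive endoderm, of 7 listed, also rose (2.98 and 5.12 against 33.8 and 18.7 CPM), and Foxa2 was at 0 in WT. Trophoblast markers, with 2 of 4 tested higher, summed to 63.9 and 65.5 against 49.9 and 81.9 CPM. Most of that sum was Tfap2c (59.1 and 60.5 against 35.1 and 56.1 CPM), which did not pass. The 2 called higher were Eomes (3.86 and 3.05 against 10.5 and 22.2 CPM) and Gata3 (0.209 and 0.177 against 1.05 and 0.853 CPM). No tested marker of mesoderm (1.5 to 1.9 CPM), neuroectoderm (8.92 to 15.9 CPM, Neurog2 at 0 in WT) or fibroblasts (20.3 to 25.5 CPM, Postn at 0 in WT) passed the test. The part of these markers in the results that follow was not tested.

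Of the 10 genes, 4 fell in Pim3-/- ESCs, the cyclin gene Ccnd2, the Ink4 genes Cdkn2a and Cdkn2b, and Cdc25c. Their mean CPM was 2.25-fold, 2.06-fold, 2.10-fold and 1.55-fold lower than in WT. Calls were made at an adjusted p under 0.05 in the quasi-likelihood test of edgeR, after Benjamini-Hochberg adjustment over all 18444 tested genes. Over those genes 16.2% were called lower and 17.6% higher. In edgeR 0 members were called higher, also at an unadjusted p under 0.05. The Wald test of DESeq2 called 0 members higher (13.9% of all genes) and 6 lower (17.3%). The fitted log2 fold change was below 0 for 9 of the 10 (7 with library totals), with a median of -0.73 (range -1.17 to 0.53) beside 0.07 over all tested genes. In the same 9 genes both Pim3-/- libraries lay below both WT libraries on the TMM scale, an arrangement seen in 34.2% of all tested genes, and in no member did both lie above both WT libraries, as they did in 38.3% of all genes. Cdkn1b was the exception, at 0.53. The members' median stood -0.80 from the median of all genes, a distance that a change of scaling leaves nearly as it is by construction. Under library totals no member was called lower (background 5.92%) and 1, Cdkn1b, was called higher (background 35.8%). All 4 calls were also lost when either WT library was left out, with adjusted p of 0.100 to 0.231 without WT replicate 1 and 0.0562 to 0.157 without WT replicate 2, where the remaining WT library is assumed to vary like the Pim3-/- pair. Far fewer genes of any kind were then called, 1.88% lower and 2.03% higher without WT replicate 1 and 5.35% and 2.95% without WT replicate 2. Without Pim3-/- replicate 1, 9 members were called lower and 1 higher (27.5% and 28.3% of all genes), and without Pim3-/- replicate 2, 7 were called lower and 0 higher (25.3% and 25.5%).

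**Figure D1:**
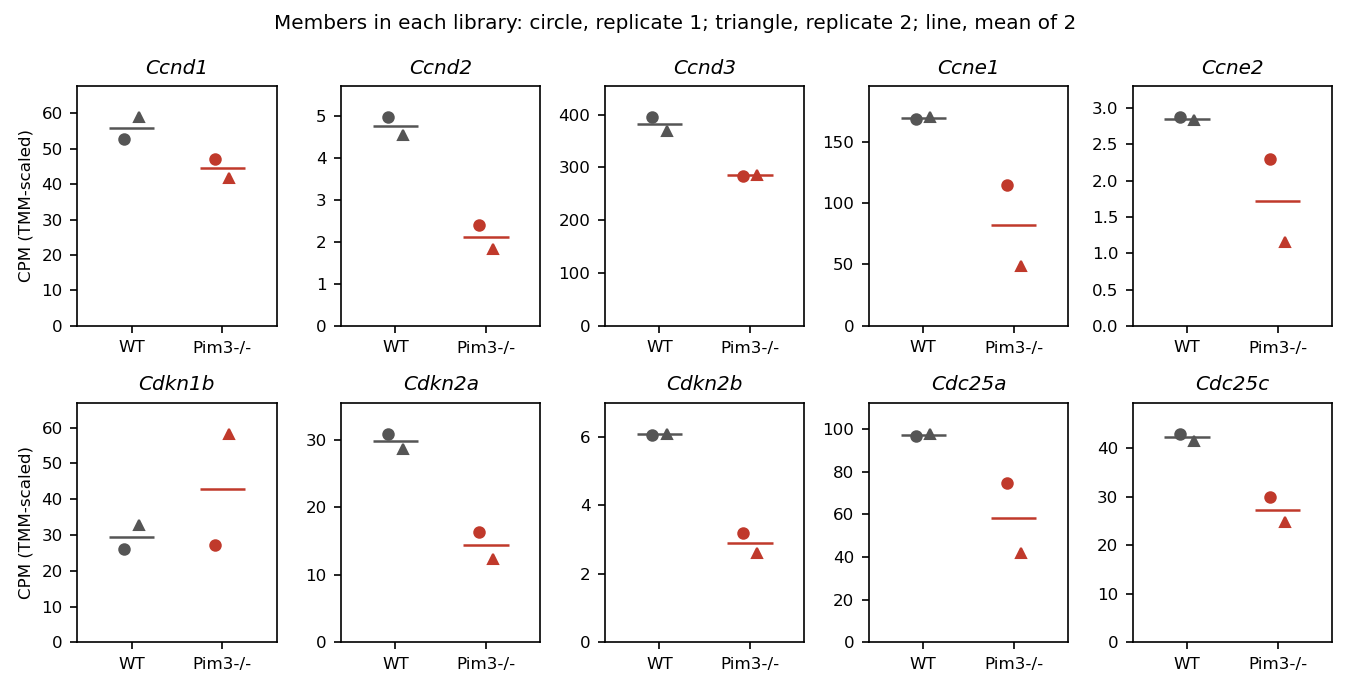
Level of each of the 10 genes in each library, in TMM-scaled CPM on axes that start at 0, with circles for replicate 1, triangles for replicate 2 and lines for the mean of a group. The Pim3-/- libraries lie below both WT libraries in 9 panels, and in the Cdkn1b panel Pim3-/- replicate 2 stands at 58.3 CPM above 3 libraries at 26.2 to 32.8. With library totals the means of Ccnd1 and Ccnd3 are not lower in Pim3-/-.

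**Figure D2:**
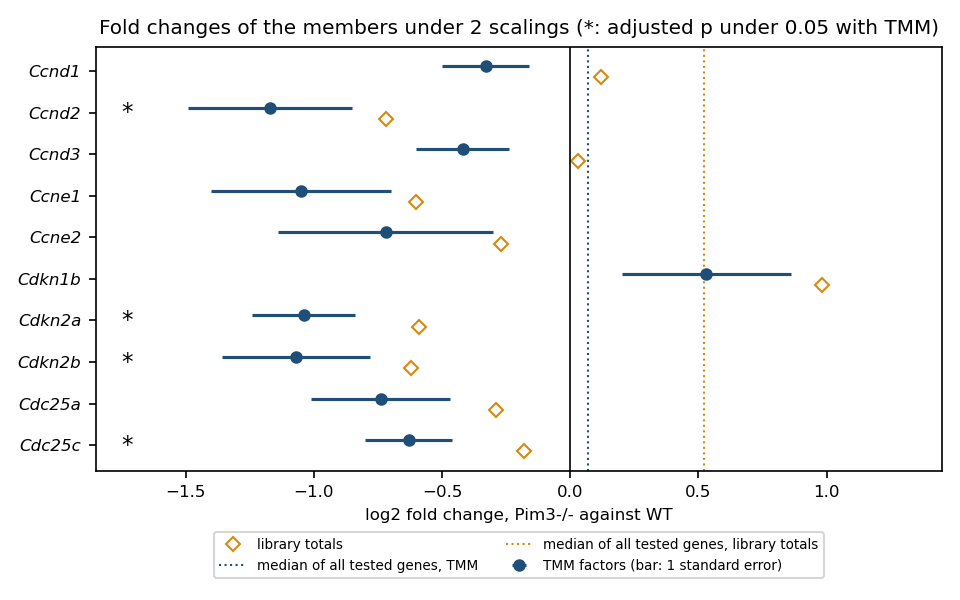
Fitted log2 fold change of Pim3-/- against WT for each gene, as filled circles with bars of 1 standard error for TMM scaling (n = 2 libraries a group) and as open diamonds for library totals. Dotted lines mark the median of all tested genes under each scaling, and stars the genes with an adjusted p under 0.05 with TMM. Library totals move the values towards higher by about the shift of all genes, 0.45, which takes Ccnd1 to 0.12 and Ccnd3 to 0.03.

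Among the D-type cyclins, Ccnd2 was the scarcest per exon length and the one that fell. Ccnd2 (ENSMUSG00000000184, GRCm38 chr6:127125162-127152193, minus strand) had 4.96 and 4.55 CPM in WT, against 2.40 and 1.82 CPM in Pim3-/-, from 95, 103, 64 and 47 counts. Both Pim3-/- libraries were below both WT libraries. Its log2 fold change was -1.17 (SE 0.32, edgeR adjusted p = 0.0282), and it was -0.72 with library totals (edgeR adjusted p = 0.111). The gene shares 372 exonic bases with the antisense gene Gm43126, which had 5 to 17 counts, and 368 with 9330179D12Rik, which had 0 or 1. Whether reads were counted by strand was not given in the sources used here, so reads of overlapping genes on opposite strands cannot be told apart.

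Ccnd1 (ENSMUSG00000070348, chr7:144929931-144939925, minus strand), the D-type cyclin most often induced by growth factor signalling, had 52.7 and 58.9 CPM in WT and 47.2 and 41.7 in Pim3-/-. The groups did not overlap, but the gap between the nearest libraries was smaller than the difference within the WT pair. The log2 fold change of -0.33 (SE 0.17) missed the threshold (edgeR adjusted p = 0.160) and turned to 0.12 with library totals. LTO1, on the opposite strand, shares 1100 exonic bases with Ccnd1 and had 605 to 762 counts, beside 1009 to 1334 for Ccnd1.

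Ccnd3 (ENSMUSG00000034165, chr17:47505051-47599691, plus strand) was the most abundant D-type cyclin RNA per exon length. It had 395 and 369 CPM in WT and 284 and 286 in Pim3-/-, with the Pim3-/- pair nearly equal and below the WT pair. This gave a log2 fold change of -0.42 (SE 0.18, edgeR adjusted p = 0.102) and 0.03 with library totals. Bysl overlaps Ccnd3 by 361 exonic bases on the opposite strand and had 3187 to 4116 counts, beside 7366 to 8361 for Ccnd3.

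The E-type cyclins were lower in 1 clone than in the other. Ccne1 (ENSMUSG00000002068, chr7:38097984-38107534, minus strand) had 168 and 169.7 CPM in WT, and 115 and 48.7 CPM in Pim3-/- replicates 1 and 2. Both Pim3-/- libraries were below WT, and the Pim3-/- libraries were much farther from each other than the WT libraries were. The log2 fold change was -1.05 (SE 0.35), and the edgeR adjusted p of 0.0537 missed the threshold. It passed with the size factors of DESeq2 (edgeR adjusted p = 0.0491), with no filter on low counts (0.0313) and in the Wald test of DESeq2 (0.00436). It did not pass with library totals (-0.60, edgeR adjusted p = 0.183) or with at least 10 counts in every library (-0.97, 0.0772). Without Pim3-/- replicate 2 the log2 fold change was -0.58, and without replicate 1 it was -1.81. Ccne2 (ENSMUSG00000028212, chr4:11191351-11204779, plus strand) had 2.87 and 2.83 CPM in WT, and 2.29 and 1.16 in Pim3-/-. Its Pim3-/- libraries were again both below WT, with replicate 2 the lower. At 30 to 64 counts per library its log2 fold change of -0.72 (SE 0.42) was not detectable as a difference (edgeR adjusted p = 0.213), and it was -0.27 with library totals (0.623). Ints8 shares 609 exonic bases with Ccne2 on the opposite strand and had 506 to 920 counts.

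The inhibitors did not move as a group. Cdkn1b (ENSMUSG00000003031, chr6:134920401-134925513, plus strand), which encodes p27, had 26.2 and 32.8 CPM in WT and 27.2 and 58.3 in Pim3-/-. Replicate 1 of Pim3-/- lay between the WT libraries and replicate 2 stood above all others, so the groups overlapped. The fitted log2 fold change was 0.53 (SE 0.33, edgeR adjusted p = 0.241). Without Pim3-/- replicate 2 it was -0.14, and without replicate 1 it was 0.96. With library totals it was 0.98 and was called higher (edgeR adjusted p = 0.0439).

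Cdkn2a and Cdkn2b are neighbours on chromosome 4, with 11645 bases between them, and both fell. Cdkn2a (ENSMUSG00000044303, chr4:89274471-89294653, minus strand) had 30.9 and 28.7 CPM in WT, and 16.4 and 12.4 in Pim3-/-, from 320 to 649 counts. Both Pim3-/- libraries were well below both WT libraries. The log2 fold change was -1.04 (SE 0.20, edgeR adjusted p = 0.0101), and -0.59 with library totals (0.0553). Cdkn2b (ENSMUSG00000073802, chr4:89306299-89311039, minus strand), which encodes p15, had 6.06 and 6.09 CPM in WT, and 3.18 and 2.60 in Pim3-/-, from 67 to 138 counts. The groups did not overlap, and the WT pair was nearly equal. Its log2 fold change was -1.07 (SE 0.29, edgeR adjusted p = 0.0267), and -0.62 with library totals (0.129). Of 3 genes listed as neighbours of the locus, Mtap and Elavl2 had log2 fold changes of -0.53 (edgeR adjusted p = 0.0818) and -0.62 (0.0489). Dmrta1 had 0 counts in both WT libraries and 5 and 2 in Pim3-/-, too few to be tested. The distances of these genes from the locus were not measured.

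Cdkn2a is transcribed from separate start sites into p16 (Ink4a) and p19 (Arf), the latter an activator of p53, and the single count row holds both. The upstream sequences of the members whose locus or clone difference is described are shown to let their promoters be compared. They are RefSeq sequence of GRCm38.p6, 5′ to 3′ on the gene's strand, up to the base before the start site and within 250 bases of it. Where the annotation puts an exon of the same gene inside the window, the run stops before it. The Ink4a start lies within an intron of the Arf transcript. Capitals mark matches on either strand to E2F motifs (TTTCCCGC, TTTCGCGC, TTTGCCGC or TTTGGCGC), the CCAAT box (CCAAT), the cAMP response element (TGACGTCA) and the FoxO motif (GTAAACA).
Cdkn2a, Arf start, chr4:89294654-89294869: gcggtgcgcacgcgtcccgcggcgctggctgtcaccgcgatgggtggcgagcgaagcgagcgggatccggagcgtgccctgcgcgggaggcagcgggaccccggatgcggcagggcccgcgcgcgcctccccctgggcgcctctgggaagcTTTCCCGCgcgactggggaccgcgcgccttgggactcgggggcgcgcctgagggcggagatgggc
Cdkn2a, Ink4a start, chr4:89282193-89282442: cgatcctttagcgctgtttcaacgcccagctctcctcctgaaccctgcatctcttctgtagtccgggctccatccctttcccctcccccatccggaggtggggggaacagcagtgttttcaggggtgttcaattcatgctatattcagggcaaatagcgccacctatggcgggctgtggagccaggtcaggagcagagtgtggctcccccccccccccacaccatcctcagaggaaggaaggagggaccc
Cdkn2b, chr4:89311040-89311282: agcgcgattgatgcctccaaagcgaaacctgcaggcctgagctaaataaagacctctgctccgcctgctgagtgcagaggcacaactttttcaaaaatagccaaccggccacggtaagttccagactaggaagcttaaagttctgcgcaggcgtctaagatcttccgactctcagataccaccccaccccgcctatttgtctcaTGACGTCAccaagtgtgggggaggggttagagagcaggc
Cdkn1b, chr6:134920151-134920400: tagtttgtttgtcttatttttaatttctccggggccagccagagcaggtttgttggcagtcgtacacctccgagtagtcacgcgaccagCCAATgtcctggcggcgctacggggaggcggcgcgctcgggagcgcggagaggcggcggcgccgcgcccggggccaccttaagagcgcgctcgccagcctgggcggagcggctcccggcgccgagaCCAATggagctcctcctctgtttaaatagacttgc
Ccne1, chr7:38107535-38107740: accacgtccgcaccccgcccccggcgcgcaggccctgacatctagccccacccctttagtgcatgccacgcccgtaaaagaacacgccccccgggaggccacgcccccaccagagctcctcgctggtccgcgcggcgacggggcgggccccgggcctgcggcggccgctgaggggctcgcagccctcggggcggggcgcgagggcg
Cdc25a, chr9:109875329-109875578: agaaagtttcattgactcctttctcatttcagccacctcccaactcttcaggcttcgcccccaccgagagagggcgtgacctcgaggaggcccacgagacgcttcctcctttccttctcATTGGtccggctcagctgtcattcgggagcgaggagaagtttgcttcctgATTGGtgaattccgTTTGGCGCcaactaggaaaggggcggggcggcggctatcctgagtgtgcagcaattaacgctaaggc

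The 2 starts of Cdkn2a differed in base composition. The Arf start had 40 CpG dinucleotides in its 250 upstream bases and the Ink4a start had 7, where the median of 32851 RefSeq promoters was 6. Only the Arf start held 1 of the E2F spellings, which were found in 1.86% of promoters, and the Ink4a start held none of the 6 motifs searched. The other motifs, not capitalised, were the GC box (GGGCGG, in 32.7% of promoters) and the E-box (CACGTG, in 6.02%). Cdkn2b had no E2F spelling but 1 cAMP response element, which occurred in 1.55% of promoters. The Cdkn1b promoter held 2 CCAAT boxes (33.8% of promoters held any). Ccne1 held 4 GC boxes, 1 of them in bases left out of its printed run, and none of the E2F spellings, and Cdc25a held 2 CCAAT boxes, 2 GC boxes and 1 E2F spelling. The upstream start of Ccnd3 held 1 FoxO motif, which occurred in 3.17% of promoters. Entries were matched for 6 of the 10 genes, with 8 starts in all. A match is a run of letters and no measure of binding.

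Both Cdc25 phosphatase genes among the 10 were lower in Pim3-/-, and Cdc25c passed the test. Cdc25c (ENSMUSG00000044201, chr18:34732993-34751533, minus strand), which acts on Cdk1 at entry into mitosis, had 42.9 and 41.5 CPM in WT and 29.8 and 24.8 in Pim3-/-. Both Pim3-/- libraries were below both WT libraries. The log2 fold change was -0.63 (SE 0.17, edgeR adjusted p = 0.0282), and it shrank to -0.18 with library totals (0.467). Gm3550, on the opposite strand, shares 623 exonic bases with Cdc25c and had 5 to 19 counts, beside 639 to 939 for Cdc25c. Cdc25a (ENSMUSG00000032477, chr9:109875579-109893895, plus strand), which acts on Cdk2 at the G1/S step, had 96.8 and 97.7 CPM in WT, and 74.6 and 41.7 in Pim3-/-. The WT pair was nearly equal, whereas Pim3-/- replicate 2 was far below replicate 1. The log2 fold change of -0.74 (SE 0.27) missed the threshold (edgeR adjusted p = 0.0646), was -0.40 without Pim3-/- replicate 2 and -1.24 without replicate 1. Cdc25a passed with no filter on low counts (edgeR adjusted p = 0.0499) and in the Wald test of DESeq2 (0.0216), with values of -0.77 and -0.78. It did not pass with library totals (-0.29, edgeR adjusted p = 0.394), with at least 10 counts in every library (-0.66, 0.0963) or with the size factors of DESeq2 (-0.78, 0.0561).

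The Pim3-/- clones differed from each other more than the WT libraries did for several of these genes. Between WT libraries the log2 difference (replicate 2 minus replicate 1) ranged from -0.123 to 0.321 over the 10 genes, and between the Pim3-/- libraries from -1.23 to 1.10. Replicate 2 of Pim3-/- was below replicate 1 in 8 of 10 genes, as in 52.9% of all tested genes, and WT replicate 2 was below WT replicate 1 in 5 of 10, as in 49.5% of all. Ccne1 was 2.35-fold lower in replicate 2, and 5.37% of all genes were lower there by at least 2-fold. Cdkn1b was 2.15-fold higher in replicate 2, and 5.67% of all genes were higher there by at least 2-fold. Ccne2 was 1.96-fold and Cdc25a 1.79-fold lower in replicate 2. Ccnd2, Cdkn2a, Cdkn2b and Cdc25c, the genes that passed the test, differed between the clones by 1.2-fold to 1.33-fold, and the clone levels of Ccnd3 were about equal. No member differed by 2-fold between the WT libraries, where 3.82% of all genes were higher and 2.90% lower by that much. With 1 library a clone, these differences have no replicate check. The summed 2C markers were 141 CPM in replicate 1 and 39.5 CPM in replicate 2, and their part in the clone differences was not tested.

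**Figure D3:**
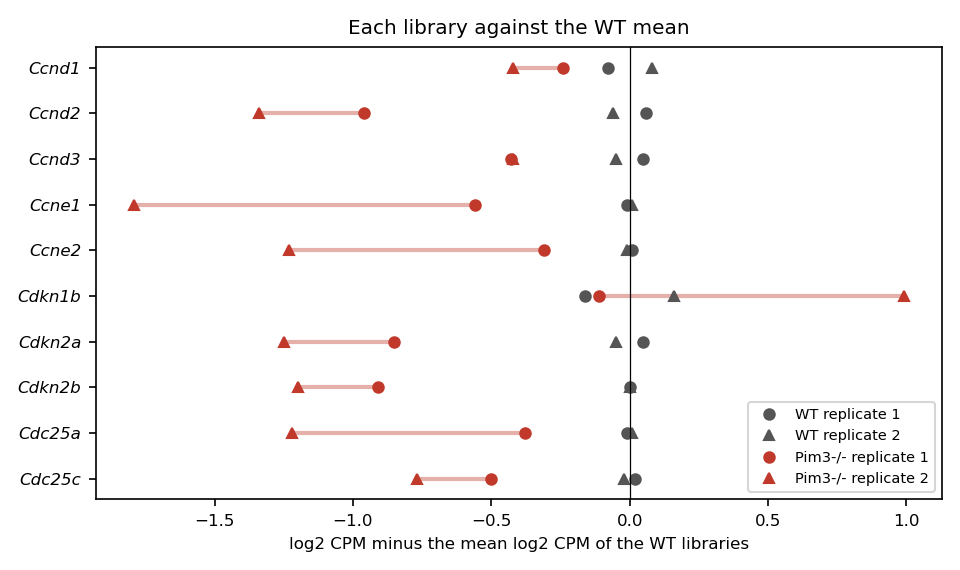
Log2 CPM (TMM) of each gene in each library minus the mean of the WT libraries, in grey for WT and red for Pim3-/-, with circles for replicate 1 and triangles for replicate 2. Ccne1 (-0.56 and -1.79), Ccne2 (-0.31 and -1.23), Cdc25a (-0.38 and -1.22) and Cdkn1b (-0.11 and 0.99) show wide gaps between clones, and Ccnd3 (-0.43 and -0.42) nearly none.

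Levels of different genes were compared per kilobase of exon. In WT, Ccne1 led with 63.5 ± 0.431 CPM per kilobase (SD, n = 2), followed by Ccnd3 with 43.5 ± 2.05 and Cdkn2a with 25.4 ± 1.33. Cdc25a (12.1) and Ccnd1 (11.8) came next and did not differ beyond their libraries, and Cdc25c (8.58), Cdkn1b (6.48), Cdkn2b (4.37), Ccne2 (0.815) and Ccnd2 (0.505) followed with no overlap between neighbours. In Pim3-/- the first place was shared by Ccnd3 (32.5 ± 0.140) and Ccne1 (30.7 ± 17.5), whose libraries overlapped. Below Cdkn2a (12.3), the neighbours Ccnd1 (9.44), Cdkn1b (9.39), Cdc25a (7.25) and Cdc25c (5.55) overlapped in turn, and Cdkn2b (2.08), Ccne2 (0.493) and Ccnd2 (0.224) kept the last 3 places. The order depends on the length used. With the longest protein-coding transcript in place of all exonic bases, an alternative chosen after seeing the data, 6 of 10 genes kept their rank in each group, and Ccnd3 (181 CPM per kilobase) stood above Ccne1 (84.5) in WT.

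Within the D-type cyclins, Ccnd3 made up 75.9% to 79.3% of the RNA per exon length over the 4 libraries, and Ccnd1 19.7% to 23.5%. The share of Ccnd2 was 0.930% and 0.878% in WT and 0.598% and 0.466% in Pim3-/-, so that the groups did not overlap. With the longest transcript as length, Ccnd3 held 91.2% to 92.6%. Of the E-type cyclin RNA, 98.2% to 98.7% was Ccne1.

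Ratios of counts within a library do not depend on scaling between libraries, and they were taken for 8 pairs, as values with no test. For each Ccnd2 count there were 10.6 and 13 Ccnd1 counts in WT, against 19.7 and 22.9 in Pim3-/-. The Pim3-/- ratios were both above WT, a mean log2 difference of 0.86. Ccnd2 was also lower relative to Ccnd3, by -0.76 on the log2 scale, whereas the Ccnd1 to Ccnd3 ratio overlapped between groups (0.09). The Ccne1 to Ccne2 ratio was 58.5 and 60.0 in WT and 50.1 and 41.9 in Pim3-/-, and the Cdc25a to Cdc25c ratio overlapped (-0.17). Against the p27 gene, the ratio of Ccne1 to Cdkn1b was 6.41 and 5.18 in WT, 4.22 in Pim3-/- replicate 1 and 0.836 in replicate 2. Pim3-/- replicate 2 was thus the only library with fewer Ccne1 than Cdkn1b counts, which are not divided by gene length. Per kilobase of exon, Ccne1 was above Cdkn1b in that library too (18.3 against 12.8 CPM). The Ccnd1 to Cdkn1b and Ccnd3 to Cdkn1b ratios were also lower in Pim3-/-, by -0.77 and -0.86 on the log2 scale, and in both the distance of replicate 1 from WT was small.

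**Figure D4:**
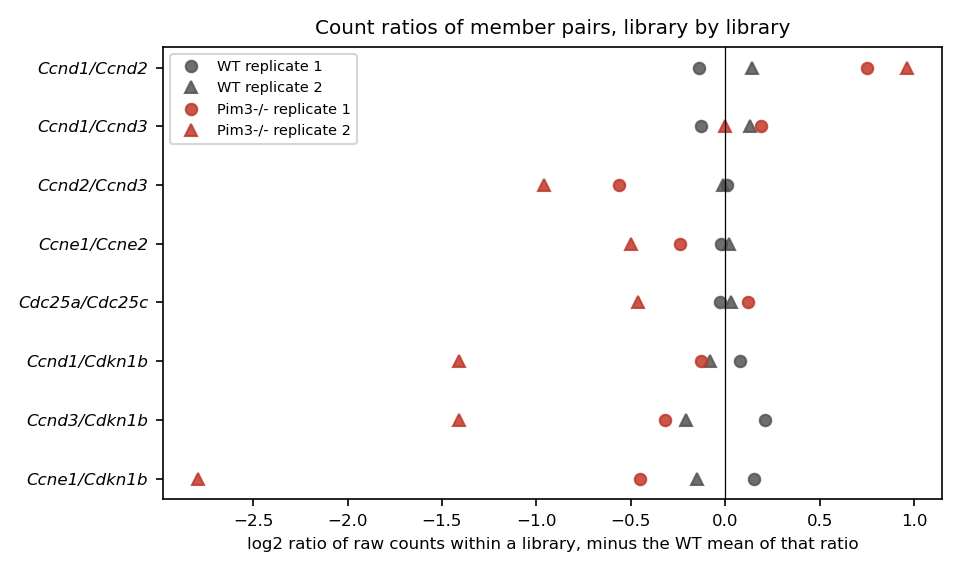
Log2 ratio of raw counts for 8 gene pairs in each library, minus the WT mean of that ratio, in grey for WT and red for Pim3-/-, with circles for replicate 1 and triangles for replicate 2. Ccnd1/Ccnd2 is higher in both Pim3-/- libraries (0.75 and 0.96), and Ccne1/Cdkn1b is lower, by far more in replicate 2 (-2.79) than in replicate 1 (-0.45).

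The other genes of the pathway were read from 10 lists with 76 genes, of which 75 were tested. In all, 25 fell (33.3%, beside 16.2% of all tested genes), 6 rose (8%, beside 17.6%) and 44 did not pass, with a median log2 fold change of -0.20. With library totals 12 were lower (16.0%, beside 5.92%) and 24 higher (32.0%, beside 35.8%), and the median was 0.25, so the sign of the median depends on the scaling. Their median stood -0.26 from that of all genes with TMM and -0.27 with library totals.

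Most catalytic partners of the cyclins fell as well. Of 7 Cdk and Cdk-activating kinase genes, 6 were called lower (85.7%, beside 16.2% of all tested genes), with a median of -0.99. Under library totals 3 were called lower (42.9%, beside 5.92%), with a median of -0.54. Cdk1 (-1.19, edgeR adjusted p = 0.0108), Cdk2 (-1.09, 0.00598), Cdk4 (-1.02, 0.00950) and Cdk6 (-0.99, 0.00950) changed by similar amounts. Of the 4 other inhibitor genes, Cdkn2d, which encodes the Ink4 protein p19Ink4d, fell (-1.10, edgeR adjusted p = 0.00525), and 3 did not pass with TMM. Thus 1 of the 4 was called lower, beside 16.2%. Of those that did not pass, Cdkn1a (70.9 and 72.2 in WT against 78.0 and 86.0 CPM) was higher in both Pim3-/- libraries. So was Cdkn1c (19.0 and 18.8 against 21.1 and 33.7 CPM), whereas Cdkn2c was lower in both (2.72 and 2.91 against 1.99 and 1.98 CPM). With library totals 2 of the 4 were called higher, beside 35.8%, and 1 lower, beside 5.92%. Among 13 genes of the retinoblastoma and E2F families 3 rose (23.1%, beside 17.6%) and 1 fell (7.69%, beside 16.2%), with a median of 0.29. With library totals 7 of them were called higher (53.8%, beside 35.8%) and 0 lower (beside 5.92%). E2f1 (1.03, SE 0.19, edgeR adjusted p = 0.00828), Rb1 (1.01, 0.0173) and Tfdp2, an E2F dimer partner (0.57, 0.0481), rose, and E2f5, a repressor-type E2F, fell (-0.83, 0.0101). The call for Tfdp2 was lost with the size factors of DESeq2 (edgeR adjusted p = 0.0637), with no filter (0.0806) and in the Wald test of DESeq2 (0.0721).

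Of the 5 S and M phase cyclins, Ccnb1 (-1.32, edgeR adjusted p = 0.00597) and Ccna2 (-0.61, 0.0322) fell (40.0%, beside 16.2% of all tested genes). Of 7 genes that control or parallel the Cdc25 phosphatases, Chek1, whose kinase targets Cdc25A for degradation, fell by 1.27 on the log2 scale (edgeR adjusted p = 0.00395). Plk1, whose kinase activates Cdc25C, also fell (-0.72, 0.0284), so that 28.6% of this list was called lower, beside 16.2%. The third phosphatase gene, Cdc25b, was higher in both Pim3-/- libraries (40.1 and 48.9 CPM) than in WT (35.1 and 32.3 CPM). Its log2 fold change of 0.40 did not pass (edgeR adjusted p = 0.113). The 14-3-3 proteins hold phosphorylated p27 and Cdc25C in the cytoplasm, and 3 of their 7 genes fell (42.9%, beside 16.2%). These were Sfn (-1.92, edgeR adjusted p = 0.00522), Ywhaq (-1.11, 0.00844) and Ywhaz (-0.70, 0.0226).

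Of 15 genes for turnover of p27 and cyclins, 7 fell (46.7%, beside 16.2% of all tested genes), with a median of -0.50. Under library totals the median was -0.05, with 4 lower and 4 higher calls (26.7% each, beside 5.92% and 35.8%). The 7 that fell with TMM were led by Cks2 (-1.49, edgeR adjusted p = 0.00338), Cks1b (-1.24, 0.00663), Rbx1 (-1.22, 0.00531) and Skp1a (-1.16, 0.00751). Skp2, the F-box protein that binds p27 for ubiquitination with Cks1, also fell (-0.83, edgeR adjusted p = 0.0300). The other 8 of the 15 were not called with TMM. In this list 5 genes had a log2 fold change above 0, among them Fbxw7 (0.14, edgeR adjusted p = 0.648) and Rnf123 (0.54, 0.0938). Among 4 FoxO factors, which are known to activate Cdkn1b, Foxo3 rose from 666 and 871 counts to 2974 and 2659. Its log2 fold change was 1.55 (SE 0.17, edgeR adjusted p = 0.00304), and the others did not pass with TMM. Thus 1 of the 4 FoxO genes was called higher, beside 17.6% of all tested genes. With library totals 3 of the 4 were called higher, beside 35.8%, and 0 lower, beside 5.92%.

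Of 11 regulators of the Ink4/Arf locus, 2 rose and 2 fell, 18.2% each way, which is near the 17.6% and 16.2% of all tested genes. Tbx2 and Tbx3, T-box repressors of Arf, rose (3.37 and 1.51, edgeR adjusted p = 0.00731 and 0.00369), Tbx2 from 4 and 2 counts to 42 and 39. Eed, a subunit of a Polycomb repressive complex, fell (-0.91, 0.00882), as did Trp53 (-0.75, 0.0377), whose product restrains Arf. Among these pathway genes, Foxo3, Cks2, Chek1, Ccnb1 and Sfn kept an adjusted p under the threshold with each library left out in turn, the largest being 0.0392, 0.0263, 0.0331, 0.0499 and 0.0172. The calls of Rb1, E2f1, E2f5, Tfdp2, Cdk4, Cdk6, Ccna2, Plk1, Skp2, Ywhaq, Ywhaz, Eed, Trp53, Tbx2 and Elavl2 were lost without either WT library, with edgeR adjusted p of up to 0.406 (Tfdp2). Those of Cdk1, Cdk2, Cdkn2d, Cks1b, Rbx1, Skp1a and Tbx3 were lost without WT replicate 1, at 0.0518 (Tbx3) to 0.0787 (Cdk1). With library totals Cdk6, E2f5, Ccna2, Plk1, Ywhaz, Eed, Trp53, Elavl2 and Skp2 stayed below 0 but did not pass (edgeR adjusted p of 0.0685 to 0.549). With at least 10 counts in every library the calls of Ccna2 (edgeR adjusted p = 0.0509), Trp53 (0.0569) and Elavl2 (0.0793) were lost, and that of Elavl2 also with no filter (0.0553).

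**Figure D5:**
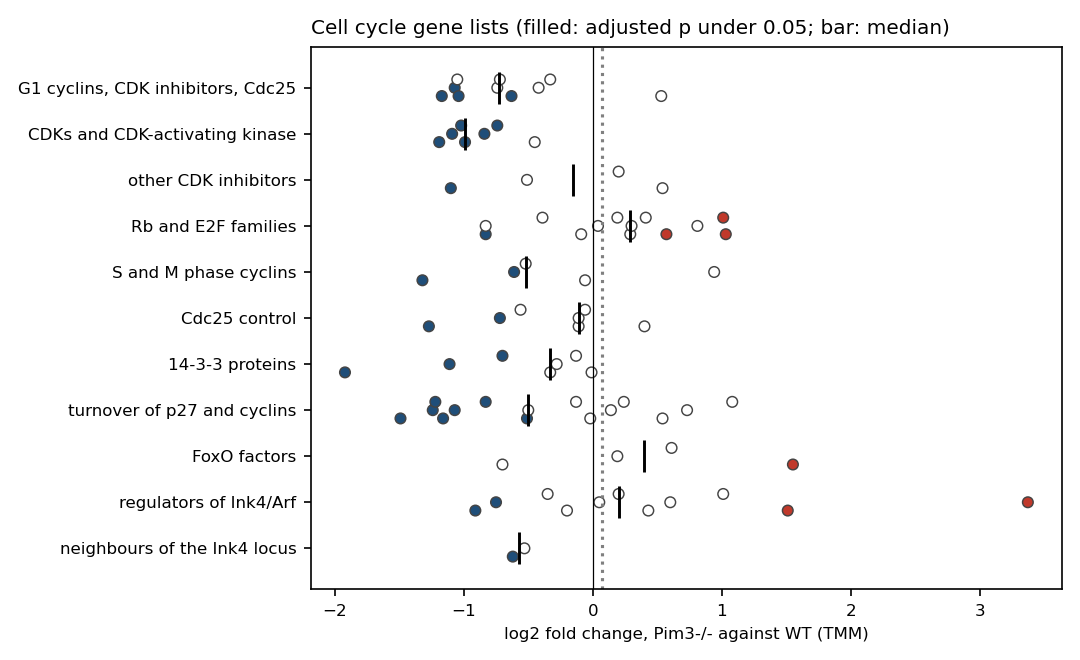
Fitted log2 fold change (TMM) of each tested gene in the 10 members and the 10 pathway lists, filled where the adjusted p was under 0.05, with a bar at the median of a list and a dotted line at the median of all tested genes (0.07). The Cdk list has the lowest median (-0.99), while library totals would move each value up by about 0.45 and take the medians of the other inhibitors, Cdc25 control and 14-3-3 lists above 0.

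For each member the gene of the lists with the nearest profile was found, as the smallest root-mean-square difference between log2 CPM values centred on their mean over the 4 libraries, among 75 candidates. Cdkn2b was nearest to Ywhaq (0.04), Cdkn2a to Cdc20 (0.06) and Ccnd2 to Cks1b (0.06). Ccne2 and Cdc25a shared Foxo4 as nearest (0.08 and 0.06), and Ccne1 was nearest to Tfdp1 (0.12). Cdkn1b, with its high level in Pim3-/- replicate 2, was nearest to Uhmk1 (0.10). Ccnd1 was nearest to Ywhah (0.04), Ccnd3 to Ccnh (0.05) and Cdc25c to Ubac1 (0.07). With 4 libraries, a small distance is a description of these libraries only.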

How the data were processed

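RNA-seq of 2 WT and 2 Pim3-/- libraries was used. The deposited values are raw read counts per gene, made by the authors. The submitters' processing notes name Trim Galore, STAR, featureCounts and GRCm38, whereas the study's methods name Cutadapt, Hisat2, mm10 and Ensembl genes. Versions, strand setting and the treatment of reads with several matches are not given in the sources used here. A second deposited table, of transposable elements, was not used.

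Of 55418 genes, 31418 had a count and 18444 passed filterByExpr (minimum count 10, minimum total 15). They were tested with edgeR 4.0.16 (R 4.3.3) by glmQLFit and glmQLFTest with TMM factors and Benjamini-Hochberg adjustment at 0.05. SE was taken from the F statistic. DESeq2 1.42.0, other scalings and filters, a replicate block and leaving out each library were alternatives. CPM had no prior count, and log2 CPM a prior count of 2. The script was tested on simulated data. With 2 libraries a group, p-values weigh a difference against the spread within groups, an estimate that also borrows from the other tested genes. They do not cover clones or cultures other than those sequenced.

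Coordinates, exon lengths and overlaps are GENCODE M21 (GRCm38). The members and lists were chosen with earlier results of these data known. Named were all members, Pim3, the up to 4 called genes with the largest change in each list, and the gene with the nearest profile. Some further genes of the lists were also named, among them some but not all direct partners of members. Libraries of a group differed beyond sampling noise, with a chi-square per degree of freedom of 11.6 in WT and 57.4 in Pim3-/-.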

Additional observations from a re-analysis of the deposited data

How the results depend on the processing

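With library totals, all genes gave 6606 higher and 1092 lower, the members 1 and 0, and the pathway genes 24 and 12. Under the same scaling Ccnd1 (0.12), Ccnd3 (0.03) and Pim3 (0.19) changed sign, Cdkn1b (0.98) passed, and Ccnd2 (-0.72), Cdkn2a (-0.59), Cdkn2b (-0.62) and Cdc25c (-0.18) no longer passed. This follows from the shift of 0.45 that this scaling gives all genes. Ccne1 passed with the size factors of DESeq2 (-1.09), no filter (-1.08) and the Wald test of DESeq2 (-1.09), and Cdc25a with no filter (-0.77) and the Wald test (-0.78). The cause was not tested. The replicate numbers carry no stated pairing. Deviations of same-numbered libraries from their group means had r = 0.0196 across 18444 genes. Differences between the clones enter that value, so it cannot show whether same-numbered libraries shared a preparation. With the replicate block, Ccne1 (-1.17) and Cdc25a (-0.80) also passed and 6 members were called lower (17.7% of all genes).

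Leaving out 1 library gave 402 to 5393 genes higher and 373 to 5255 lower, 0 to 1 and 0 to 9 of the members, and 1 to 16 and 4 to 41 of the pathway genes. The lowest counts of lower genes came without WT replicate 1, and the highest without Pim3-/- replicate 1. The log2 fold changes then ranged from -0.46 to -0.26 (Ccnd1), -1.40 to -1.0 (Ccnd2), -0.55 to -0.43 (Ccnd3), -1.81 to -0.58 (Ccne1), -1.31 to -0.33 (Ccne2), -0.14 to 0.96 (Cdkn1b), -1.28 to -0.87 (Cdkn2a), -1.24 to -0.95 (Cdkn2b), -1.24 to -0.40 (Cdc25a) and -0.78 to -0.52 (Cdc25c). The reversal of Cdkn1b (-0.14) came without Pim3-/- replicate 2. Of the 100 log2 fold changes of members under alternatives, 68 kept their direction and side of the threshold, 17 came to pass, 12 ceased to pass and 3 changed sign. The ratios have no test, and those of Ccnd1 to Ccnd3 (-0.03 without WT replicate 1) and Cdc25a to Cdc25c (0.12 without Pim3-/- replicate 2) changed sign. Depth limits Ccnd2, Ccne2 and Cdkn2b, at 30 to 138 counts per library.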
